A study of Mus musculus with 6 samples.

Results

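The 7 genes described here encode the core relay of the RAS to ERK pathway: the small GTPases Hras and Nras, the kinases Araf and Braf that active RAS recruits, the MEK kinases Map2k1 and Map2k2, and the ERK kinase Mapk3. They were taken by gene name from a table of raw RNA-seq counts, in which each name stood in 1 row, and all 7 passed the filter on low counts that left 14738 of 56953 genes for testing. The counts came from mouse pancreatic acinar cells on day 3 of a culture in which such cells convert towards a ductal state (acinar-to-ductal metaplasia). WT cells were from wild-type mice, DD cells from mice homozygous for a ubiquitous Dkk3 null allele, and DD_rDKK3 cells from DD mice with recombinant soluble DKK3 added to the medium, with 2 libraries in each group. The null allele removes the secreted protein, while a shorter intracellular Dkk3 transcript that starts in intron 2 is kept. All 6 cultures shared Waymouth medium with serum, trypsin inhibitor and dexamethasone. The labelled ages rose by 1 week from library to library, from 10 weeks in the first WT library to 15 weeks in the second DD_rDKK3 library, and 1 WT library was labelled female and the others male, so age and group cannot be told apart. The labelled ages differ between the 2 libraries of a group, but no label names an animal. Ages that rise by exactly 1 week in library order may be an artefact of data entry. They therefore do not settle which libraries came from different mice.

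RAS proteins are switches that are on when bound to GTP and off when bound to GDP. Active RAS brings RAF kinases to the membrane, RAF phosphorylates MEK, and MEK phosphorylates ERK, which then acts on cytoplasmic substrates and on transcription factors in the nucleus. Most of this relay works through phosphorylation and GTP loading, which RNA counts do not measure, and in the pancreas persistent activity of the pathway is a known driver of acinar-to-ductal metaplasia. The comparison made here asks whether the transcripts of the relay itself, as opposed to those of genes that ERK activity is known to induce, differed between the groups.

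The upstream DNA of 6 of the 7 genes was matched by symbol in the RefSeq promoter table (build GRCm38.p6), and Mapk3 was not matched. In the 250 bases before each start, GC content ran from 48.4% in Nras to 68.4% in Map2k1, against a median of 52.4% over 32851 promoters, and none of the 6 held TATAAA or its reverse complement TTTATA, which 12.4% of all promoters held. The SP1 box GGGCGG (either strand, reverse complement CCGCCC) stood in 5 of the 6, all but Araf, against 32.7% of all promoters. Map2k1 had the most, with 4 boxes. The cyclic AMP response element TGACGTCA, which reads the same on both strands, stood in Braf alone among the 6, as 2 copies, against 1.55% of all promoters. Of the ERK output genes described further on, 5 were matched, and of these Epha2 held 1 copy. Map2k1 is shown as the member with the widest separation between groups, Braf as the member with the lowest level per length, and Epha2 as an output gene. Capitals mark GGGCGG or CCGCCC in Map2k1, and TGACGTCA in Braf and Epha2. The windows are chr9:64253606-64253855 on the minus strand, chr6:39725464-39725713 on the minus strand and chr4:141300971-141301220 on the plus strand, each written 5′ to 3′.
Map2k1: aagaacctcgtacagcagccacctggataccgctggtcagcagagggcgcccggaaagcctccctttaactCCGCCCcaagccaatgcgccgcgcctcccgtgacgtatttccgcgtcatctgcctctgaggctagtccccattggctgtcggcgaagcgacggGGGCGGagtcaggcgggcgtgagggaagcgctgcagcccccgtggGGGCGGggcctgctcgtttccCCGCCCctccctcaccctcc
Braf: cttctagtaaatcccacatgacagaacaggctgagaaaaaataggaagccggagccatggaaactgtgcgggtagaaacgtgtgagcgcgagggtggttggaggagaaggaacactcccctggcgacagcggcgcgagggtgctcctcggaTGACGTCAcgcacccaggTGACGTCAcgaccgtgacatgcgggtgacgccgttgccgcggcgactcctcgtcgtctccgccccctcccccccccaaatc
Epha2: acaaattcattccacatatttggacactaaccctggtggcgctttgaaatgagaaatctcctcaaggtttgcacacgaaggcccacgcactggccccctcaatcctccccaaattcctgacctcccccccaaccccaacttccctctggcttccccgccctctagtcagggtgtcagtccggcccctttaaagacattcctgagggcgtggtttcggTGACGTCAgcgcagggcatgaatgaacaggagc
A match in these windows is a description of the sequence and was not tested as a binding site.

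In build GRCm39, Hras (ENSMUSG00000025499.19) lies on chromosome 7 from 140769018 to 140773918 and Mapk3 (ENSMUSG00000063065.14) on chromosome 7 from 126358773 to 126364991, which puts them 29.01 and 14.6 Mb from Dkk3 on the same chromosome. Nras (ENSMUSG00000027852.15) lies on chromosome 3 from 102965601 to 102975230, Araf (ENSMUSG00000001127.13) on chromosome X from 20664053 to 20726758, and Braf (ENSMUSG00000002413.16) on chromosome 6 from 39580171 to 39702397. Map2k1 (ENSMUSG00000004936.9) lies on chromosome 9 from 64093052 to 64160913, and Map2k2 (ENSMUSG00000035027.19) on chromosome 10 from 80941749 to 80969809. Counting was strand-specific, and the coding neighbours that overlap members, Syn1 by 9 bases of Araf, Ndufb2 by 146 bases of Braf and Uchl4 by 1162 bases within Map2k1, are all on the opposite strand. The processed pseudogene Fth-ps2 lies within Braf on the same strand without exon overlap and had 0 to 3 counts. Nras-ps2, the annotated Nras pseudogene, had 0 counts in every library. In 6 of the 7 canonical transcripts no stretch of 50 or more bases matched a transcript of another gene at 95% identity, and in Nras 5.34% of the bases did, so its counts carry slightly more uncertainty of assignment.

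Total counts per library ran from 12018473 to 19750401, and each member had 160 to 3586 counts per library. The 95% counting interval of a library was narrower than the gap between the libraries of its group for some members, such as Map2k2 in DD, and wider for others, such as Map2k1 and Mapk3 in DD. Dkk3 itself was read 10 times and once in the WT libraries, 11 and 9 times in DD and 5 times in each DD_rDKK3 library. These counts are few. They also cover the whole gene, with the shorter transcript that the null allele keeps, so they cannot check the genotype labels. All 13 acinar markers were tested and their summed level was 77210 to 134200 CPM (depth-normalised counts, scaled by TMM, the trimmed mean of M values). Of these markers 10 of 13 were lower for DD against WT (median log2 fold change -0.39, 4 at an unadjusted p under 0.05, beside 8.26% of all genes, 0 called). For DD_rDKK3 against DD 13 of 13 were higher (median 0.22, 0 called). Of 8 ductal markers, 6 were higher for DD against WT (median 0.05, 0 called) and 3 for DD_rDKK3 against DD (median -0.22, 0 called). The libraries were not equal in other cell types. The summed level of 10 fibroblast markers stood at 114 and 41.0 CPM in WT, 62.4 and 754 in DD, and at 152 and 850.2 in DD_rDKK3, and the summed level of 8 macrophage markers was 126, 58.5, 69.1, 245, 84.9 and 189 CPM in the same order. The second DD and second DD_rDKK3 libraries thus stood apart, and values without them are given for the members, for each list and for the named genes whose value moved by over 1.5 times. All 10 fibroblast markers had positive log2 fold changes for DD against WT (median 2.18, 0 called). The part of acinar, ductal, fibroblast and macrophage content in the differences described below was not tested. In bulk RNA, fewer cells of a type and less RNA per cell cannot be told apart.

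No core gene passed the test in any of the 3 comparisons. Between DD and WT, 0 of 7 members passed an adjusted p of 0.05 in edgeR's quasi-likelihood test, where 0.0407% of all tested genes (6 of 14738) did, and 0 of 7 had an unadjusted p under 0.05, where 8.26% of all genes did. Between DD_rDKK3 and DD the members again gave 0 of 7 on both counts, against 0% and 1.98% of all genes. Between DD_rDKK3 and WT they gave 0 of 7 on both counts, against 0.0475% and 15.3%. The fitted log2 fold changes of the 7 ran from -0.04 to 0.22 for DD against WT, from -0.27 to 0.20 for DD_rDKK3 against DD, and from -0.22 to 0.27 for DD_rDKK3 against WT, with medians of 0.14, -0.10 and 0.07 beside 0.02, 0.00 and 0.02 over all genes. With 2 libraries in a group a miss does not show that levels were equal, and the intervals below give the range of change that the data allow.

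**Figure D1:**
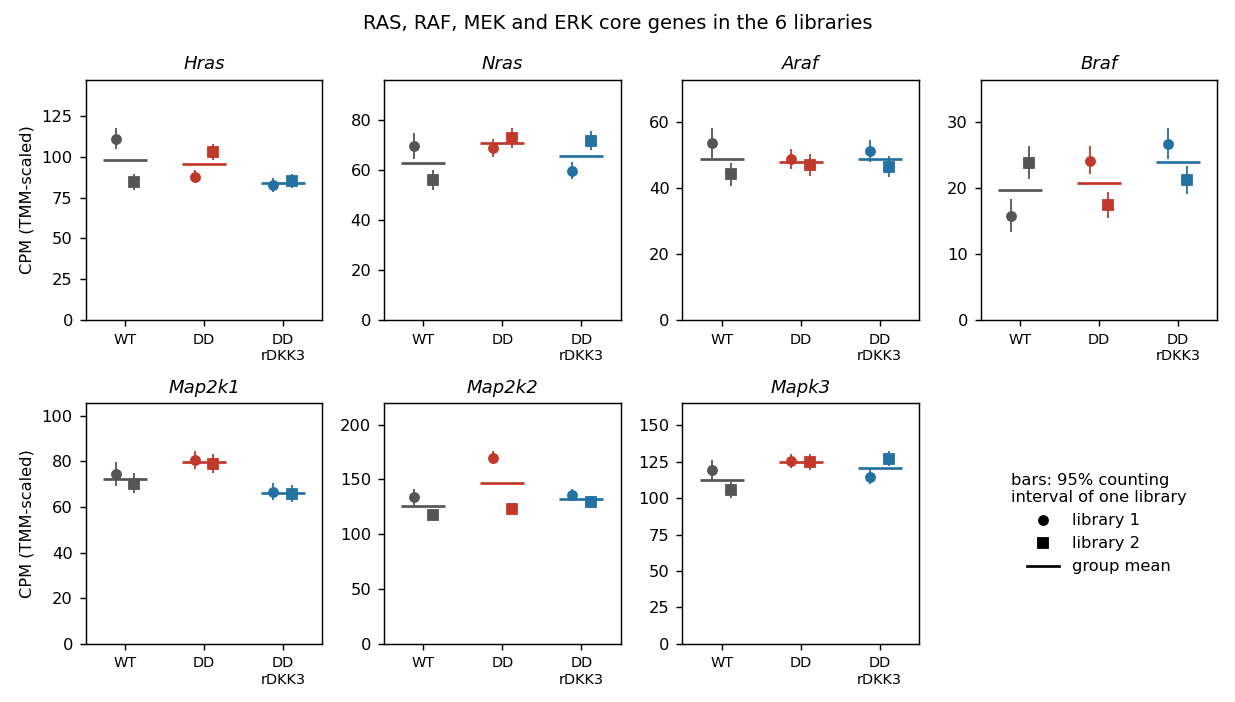
TMM-scaled CPM (linear axis from 0) of each of the 7 core genes in the 6 libraries, with circles for the first and squares for the second library of a group, horizontal bars for group means, and vertical bars for the 95% Poisson counting interval of each library. The DD libraries of Map2k1, at 80.5 and 79.0 CPM, sit above the other 4, while for Araf and Braf the libraries of the groups intermingle.

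Hras, a RAS GTPase, stood at 111 and 84.6 CPM in WT, 87.7 and 103 in DD, and at 82.5 and 85.3 in DD_rDKK3. The first WT library was the highest and the first DD_rDKK3 library the lowest, and the WT range enclosed both DD values. The group means were 97.8 ± 18.8 CPM in WT, 95.4 ± 10.8 in DD and 83.9 ± 1.95 in DD_rDKK3 (SD, n = 2). The log2 fold change was -0.04 for DD against WT (SE 0.182, 95% interval -0.46 to 0.39), -0.18 for DD_rDKK3 against DD (-0.61 to 0.24) and -0.22 for DD_rDKK3 against WT (-0.64 to 0.20). Both DD_rDKK3 libraries were below both DD libraries, a separation that 29.5% of all tested genes showed in one direction or the other in that comparison.

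Nras, the other RAS gene measured here, stood at 69.7 and 56.1 CPM in WT, 68.7 and 72.8 in DD, and at 59.8 and 71.8 in DD_rDKK3. The second WT library was the lowest, and each pair of groups overlapped. The group means were 62.9 ± 9.62, 70.7 ± 2.91 and 65.8 ± 8.46 CPM (SD, n = 2). Its log2 fold change was 0.17 for DD against WT (SE 0.172, 95% interval -0.23 to 0.57), -0.10 for DD_rDKK3 against DD and 0.07 for DD_rDKK3 against WT.

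Araf, the RAF kinase with the more abundant transcript of the 2 measured, was the flattest of the members between groups. It stood at 53.4 and 44.0 CPM in WT, 48.6 and 46.8 in DD, and at 51.0 and 46.4 in DD_rDKK3. Both WT libraries lay outside the values of the other 4, one above and one below. The log2 fold changes were -0.03, 0.03 and -0.00 in the 3 comparisons, and the intervals together ran from -0.39 to 0.38, or 0.765-fold to 1.3-fold.

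Braf, the other RAF kinase, had the fewest counts and the widest intervals. It stood at 15.7 and 23.7 CPM in WT, 24.1 and 17.3 in DD, and at 26.7 and 21.1 in DD_rDKK3. Each group had a lower and a higher library, all 3 groups overlapped, and the highest library was 1.70 times the lowest, beside a median of 1.63 over all genes. The log2 fold change was 0.07 for DD against WT (SE 0.257, 95% interval -0.53 to 0.66), 0.20 for DD_rDKK3 against DD (-0.39 to 0.79) and 0.27 for DD_rDKK3 against WT (-0.33 to 0.87). A difference of up to 1.83-fold between DD_rDKK3 and WT therefore lies within the interval.

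Map2k1, which encodes MEK1, showed the clearest separation of groups among the members. It stood at 74.4 and 70.2 CPM in WT, 80.5 and 79.0 in DD, and at 66.8 and 65.7 in DD_rDKK3. No 2 groups overlapped, with DD highest, WT between and DD_rDKK3 lowest, and the group SDs were 2.92, 1.06 and 0.77 CPM. The log2 fold change was 0.14 for DD against WT (SE 0.138, 95% interval -0.18 to 0.46, edgeR adjusted p = 0.702). For DD_rDKK3 against DD it was -0.27 (SE 0.138, 95% interval -0.59 to 0.05, edgeR adjusted p = 1.00), a ratio of 0.831. For DD_rDKK3 against WT it was -0.13 (-0.45 to 0.20). The share of all genes whose libraries did not overlap was 37.8% for DD against WT, 29.5% for DD_rDKK3 against DD and 55% for DD_rDKK3 against WT, so non-overlap in 1 gene is no result about that gene.

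Map2k2, which encodes MEK2, stood at 133.9 and 117 CPM in WT, 169.7 and 123 in DD, and at 136 and 129 in DD_rDKK3. The first DD library was far above the other 5, and the second DD library lay below the first WT library. The group means were 126 ± 11.7, 146 ± 33.2 and 132 ± 4.63 CPM (SD, n = 2). The log2 fold change for DD against WT was 0.22 (SE 0.195, 95% interval -0.23 to 0.67), and it rested on the first DD library: it was -0.01 without that library and 0.44 without the second DD library, the one with high fibroblast markers. For DD_rDKK3 against DD it was -0.14 (-0.59 to 0.31), with values of 0.09 and -0.36 without the first and the second DD library.

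Mapk3, which encodes ERK1, stood at 119 and 105 CPM in WT, 125 and 125 in DD, and at 115 and 127 in DD_rDKK3. Both DD libraries were above both WT libraries, and the DD_rDKK3 libraries lay on either side of DD. The group means were 112 ± 9.76, 125 ± 0.475 and 121 ± 8.49 CPM (SD, n = 2). The log2 fold change was 0.16 for DD against WT (SE 0.154, 95% interval -0.20 to 0.51), -0.05 for DD_rDKK3 against DD and 0.11 for DD_rDKK3 against WT. Over the members, non-overlap of the groups was thus seen in 2 of 7 genes for DD against WT (Map2k1 and Mapk3, both higher), in 2 of 7 for DD_rDKK3 against DD (Hras and Map2k1, both lower) and in 1 of 7 for DD_rDKK3 against WT (Map2k1, lower), in each case a share below that over all genes.

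**Figure D2:**
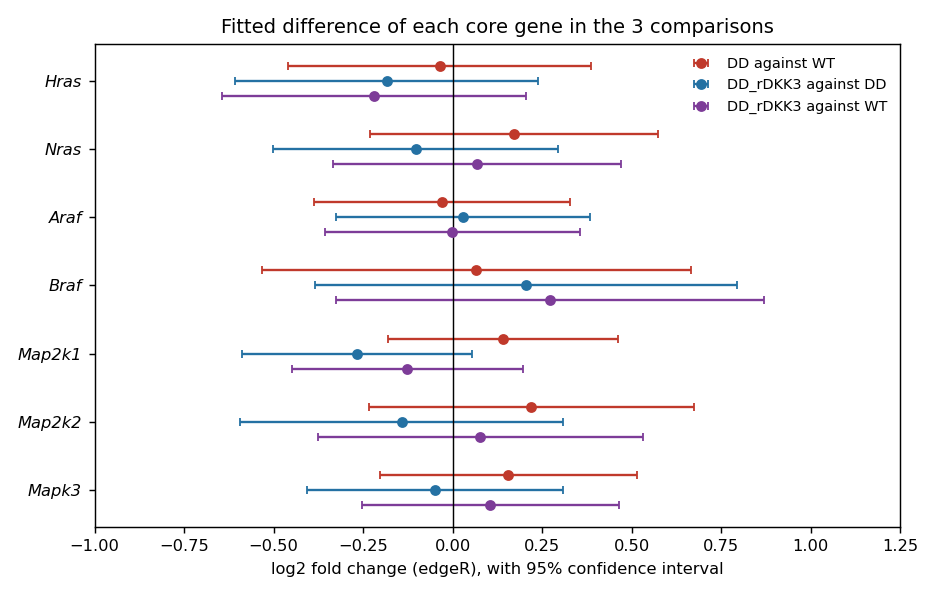
Fitted log2 fold change of each core gene (horizontal axis) with its 95% confidence interval from edgeR, for DD against WT, DD_rDKK3 against DD and DD_rDKK3 against WT. Every one of the 21 intervals includes 0, the nearest to excluding it being Map2k1 in DD_rDKK3 against DD (-0.59 to 0.05), and Braf has the widest intervals.

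Leaving out the second DD and second DD_rDKK3 libraries together, an alternative chosen after the marker values were seen, leaves 1 library each in DD and DD_rDKK3, whose spread is then taken from the 2 WT libraries, so its lack of calls says nothing about stability. The members' log2 fold changes were then from -0.16 to 0.43 for DD against WT and from -0.31 to 0.15 for DD_rDKK3 against DD. The scaling shifted the members together with all genes. Library totals in place of TMM moved the median of all genes to 0.22 for DD against WT, and all 7 members then had positive log2 fold changes (0.18 to 0.44). Of these, 3 had an unadjusted p under 0.05 and 0 were called. The share of all genes at that p under this scaling was not determined, so the count is no result about the members. Their median of 0.35 was 0.13 above that shifted median of all genes, beside 0.12 under TMM. The TMM factors ran from 0.848 in the first WT library to 1.07 in the first DD library.

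Most members varied less between libraries than the median tested gene. Their biological coefficient of variation in edgeR was 12.2% (Map2k1) to 19.8% (Braf), and 6 of 7, all but Braf, were below the median of all tested genes, 18.7%. The ratio of the highest to the lowest library ran from 1.20 in Mapk3 to 1.70 in Braf, and 6 of 7 were below the median of all genes, 1.63. Together the 7 genes took 0.0489% to 0.0647% of all counts. Lowly counted genes vary more, so the values for Braf are given beside its counts of 160 to 509 per library. The other 6 stood at the 79th (Araf) to 94th (Map2k2) percentile of tested genes by mean CPM, and genes of like level were not compared.

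Per kilobase of exon (the union of the exons of each gene), the mean level over the 6 libraries was 48.3 CPM per kb for Mapk3, 31.5 for Map2k2, 29.0 for Map2k1, 20.7 for Hras, 10.6 for Nras, 5.96 for Araf and 1.45 for Braf. On this scale the kinases at the end of the relay were the most abundant and the RAF kinases the least. Mapk3 stood at the 94.5th percentile of tested genes and Braf at the 33.7th. Neighbours in this order did not overlap over the 6 libraries except Map2k2 (27.5 to 39.7) and Map2k1 (26.2 to 32.1). The order depends on which transcripts are taken to be present. With canonical transcript lengths Hras (41.3) was above Map2k1 (29.5), and Araf (19.1) was above Nras (12.3), while Mapk3, Map2k2 and Braf kept first, second and last place.

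Ratios of paralogs within a library do not depend on depth or scaling. The ratio of Hras to Nras per kb stood at 2.24 and 2.12 in WT, 1.80 and 1.99 in DD, and at 1.94 and 1.67 in DD_rDKK3, so both WT libraries were above all 4 Dkk3-null libraries. The canonical transcripts have 2235 bases (Hras) and 5411 (Nras), in the next to shortest and the longest of 5 length classes. Over all genes those classes had median log2 fold changes of -0.09 and 0.23 for DD against WT. The part of length in this ratio was not tested, and the share of gene pairs that separate in this way was not determined. The exact two-sided permutation test cannot give a p below 0.333 with 2 libraries against 2, or below 0.133 with the 2 WT libraries against all 4 others, so it cannot reach 0.05 here. The ratio of Araf to Braf stood at 6.22 and 3.39 in WT, 3.69 and 4.93 in DD, and at 3.49 and 4.01 in DD_rDKK3, where the 2 WT libraries were the extremes. The ratio of Map2k1 to Map2k2 stood at 0.946 and 1.02 in WT, 0.807 and 1.10 in DD, and at 0.837 and 0.865 in DD_rDKK3, and the 2 DD libraries were the extremes. Another transcript length rescales each ratio by 1 factor in all libraries and leaves these orders as they are.

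**Figure D3:**
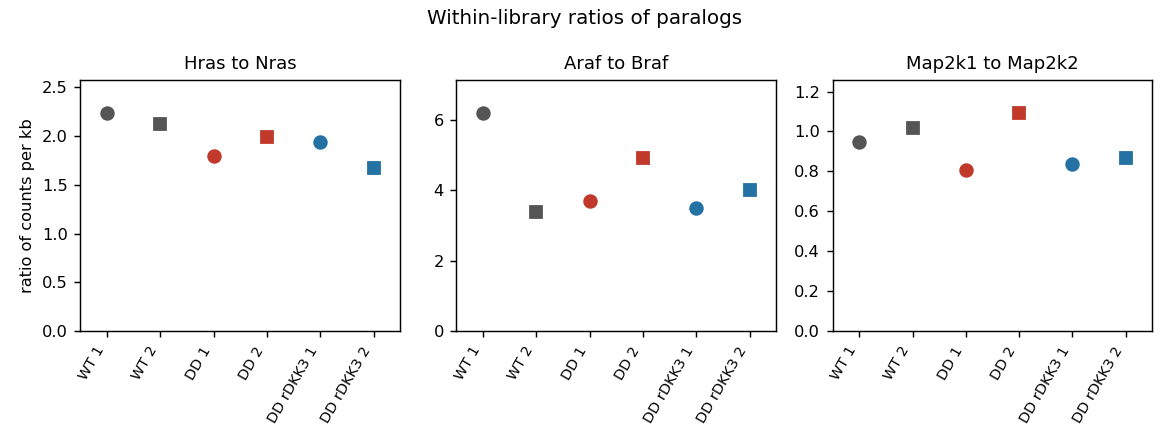
Ratio of counts per kb (linear axes from 0, union exon lengths) of Hras to Nras, Araf to Braf and Map2k1 to Map2k2 in each of the 6 libraries, with circles for the first and squares for the second library of a group. For Hras to Nras both WT points (2.24 and 2.12) lie above the 4 Dkk3-null points (1.67 to 1.99), and for the other pairs the groups overlap or 1 group spans the rest.

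Among the members, the pair with the highest correlation of log2 CPM over the 6 libraries was Nras and Mapk3 (Pearson r = 0.94), and the pair with the lowest was Hras and Braf (r = -0.95). These are descriptions over 6 points that share library, depth and scaling. Over 8915 genes with an average log2 CPM of at least 3, the gene most like each member was Hnrnpf for Hras (r = 0.99), Nipal1 for Nras (0.99), Gm45444 for Araf (0.97), Ofd1 for Braf (0.995), Pdlim7 for Map2k1 (0.98), Ybx3 for Map2k2 (0.98) and Rap2a for Mapk3 (0.99). With 6 libraries such values are common: between 25 genes (Map2k1) and 266 genes (Braf) had an r above 0.9 with a member.

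Around the core relay, 88 genes in 7 lists by role were followed, of which 84 were tested. None was called by edgeR in any of the 3 comparisons. At an unadjusted p under 0.05 the lists gave 7 higher and 2 lower genes for DD against WT (10.7% of the 84, beside 8.26% of all genes). They gave 0 higher and 2 lower for DD_rDKK3 against DD (2.38%, beside 1.98%) and 7 higher and 6 lower for DD_rDKK3 against WT (15.5%, beside 15.3%), shares near the background. The median log2 fold change over the 84 was 0.06, -0.05 and 0.01. DESeq2 called 1 of them in each comparison, Sfn in the first and second and Ywhaq in the third, both of the 14-3-3 family (Ywhaq was named after its value was seen). Their DESeq2 adjusted p values were 0.049, 0.0432 and 0.0448. Over all genes DESeq2 called 80, 5 and 74 in the same comparisons, where edgeR called 6, 0 and 7. Without the second DD and second DD_rDKK3 libraries the list medians for DD against WT were 0.34 for RAS activators and adaptors, 0.47 for RAS GAPs, 0.07 for RAS processing, -0.14 for related GTPases, -0.02 for RAF and MEK partners, 0.14 for the other MAP kinase arms and 0.20 for ERK-activated kinases. For DD_rDKK3 against DD they were 0.01, -0.07, -0.01, 0.04, -0.07, -0.04 and -0.06 in the same order, against 0.04, 0.09, -0.07, -0.12, -0.11, -0.06 and 0.11 with all libraries.

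The RAS GAPs, which return RAS to its GDP-bound state, had the highest median of the 7 lists for DD against WT, 0.53. Of the 8 genes 7 were higher, 3 of them at an unadjusted p under 0.05, beside 8.26% of all genes, and 0 of 8 were called. The median was 0.29 without the first WT library and 0.91 without the second. Rasa2 stood at 10.2 and 14.3 CPM in WT, 19.5 and 18.3 in DD, and at 18.3 and 19.2 in DD_rDKK3 (log2 fold change 0.62 for DD against WT, SE 0.202, edgeR adjusted p = 0.586). Dab2ip stood at 26.2 and 28.5 CPM in WT, 38.8 and 34.9 in DD, and at 39.5 and 41.8 in DD_rDKK3 (0.43, SE 0.144, edgeR adjusted p = 0.586). In both genes all 4 Dkk3-null libraries, treated or not, were above both WT libraries. The named genes of each pathway list were chosen for a small p in these data, which favours separated groups. Over all tested genes, groups did not overlap in 37.8% for DD against WT and 55% for DD_rDKK3 against WT. The share with all 4 Dkk3-null libraries on the same side of WT was not determined. Rasal2, with the lowest p of the list for DD_rDKK3 against DD, stood at 4.42 and 7.38 CPM in WT, 9.23 and 9.17 in DD, and at 6.92 and 7.37 in DD_rDKK3 (-0.36, SE 0.26, edgeR adjusted p = 1.00). The list median was 0.09 for DD_rDKK3 against DD and 0.57 for DD_rDKK3 against WT. Transcript length moved with these differences across all genes: over 5 equal classes of tested genes, from the shortest canonical transcripts to the longest, the median log2 fold change for DD against WT went from -0.21 through -0.09, 0.02 and 0.10 to 0.23. The RAS GAPs had a median length of 5914 bases, in the longest class, and the 7 core genes 2464, in the next to shortest. The part of length in the RAS GAP values was not tested.

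The RAS activators and adaptors, which include the exchange factors that load RAS with GTP, had a median of 0.28 for DD against WT, with 9 of 11 tested genes higher and 0 called, and a median length of 5072 bases. It was 0.14 without the first WT library and 0.43 without the second. Sos1, an exchange factor, stood at 14.1 and 19.0 CPM in WT, 24.8 and 19.3 in DD, and at 24.7 and 23.0 in DD_rDKK3 (0.41 for DD against WT, SE 0.208, and 0.53 for DD_rDKK3 against WT, SE 0.208, edgeR adjusted p = 0.322). Rasgrp3, another exchange factor, was at 1.77 and 2.32 CPM in WT and 2.51 and 3.82 in DD (0.62, SE 0.351, and 0.29 without the second DD library). Gab1, a docking adaptor below growth factor receptors, was at 16.4 and 13.2 CPM in DD and 21.1 and 17.5 in DD_rDKK3 (0.38, SE 0.192). Rasgrp1 and Rasgrf1, with 1 to 9 counts per library, did not pass the filter on low counts.

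Genes that process RAS and move it to membranes split evenly for DD against WT, 5 higher and 5 lower of 10, with a median of -0.06. Golga7, which partners a palmitoyltransferase of RAS, stood at 80.7 and 83.0 CPM in WT, 103.5 and 115 in DD, and at 71.8 and 78.0 in DD_rDKK3. It was above WT in both DD libraries and below WT in both DD_rDKK3 libraries (log2 fold change 0.42, SE 0.148, for DD against WT and -0.54, SE 0.148, for DD_rDKK3 against DD, edgeR adjusted p = 0.586 and 1.00). Pde6d, which carries prenylated RAS through the cytosol, stood at 28.7 and 25.1 CPM in WT, 15.3 and 20.6 in DD, and at 16.9 and 17.9 in DD_rDKK3 (-0.58, SE 0.193, for DD against WT and -0.63, SE 0.193, for DD_rDKK3 against WT). Pde6d was lower in all 4 Dkk3-null libraries than in both WT libraries. Golga7 and Pde6d were chosen for small p values, which favours such separation, and neither gene passed the adjusted test.

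The related GTPases had a median of -0.22 for DD against WT, with 7 of 9 genes lower, 0 at an unadjusted p under 0.05 and 0 called. The median was -0.03 without the first WT library, -0.34 without the second, -0.02 without the first DD library, -0.13 without the second, and -0.0048 with library totals. Rit1 was at 37.2 and 33.8 CPM in WT and 23.5 and 31.6 in DD (-0.37, SE 0.184), and Mras, under 1.4 CPM in every library, gave 1.22 (SE 0.712), which rested on the second DD library: it was 0.20 without that library and 1.87 without the first. Rras2 was at 124 and 147 CPM in DD and 115.5 and 115 in DD_rDKK3 (-0.23, SE 0.184), and Rheb, an activator of mTORC1, at 109.8 and 96.8 in WT and 83.9 and 81.4 in DD_rDKK3 (-0.32, SE 0.15). Without the second DD and second DD_rDKK3 libraries Rit1 gave -0.59 and Rras2 -0.10.

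Among 25 scaffolds, chaperones and regulators of RAF and MEK, the median was 0.02 for DD against WT and -0.11 for DD_rDKK3 against DD. Sfn, the 14-3-3 sigma protein, stood at 71.5 and 79.0 CPM in WT, 111 and 110.2 in DD, and at 71.6 and 69.3 in DD_rDKK3. Both DD libraries were above the other 4, and the treated libraries were level with or below the lower WT library. The log2 fold change was 0.56 (SE 0.144, edgeR adjusted p = 0.586) for DD against WT and -0.65 (SE 0.144, edgeR adjusted p = 1.00) for DD_rDKK3 against DD, and under DESeq2 the adjusted p was 0.049 and 0.0432. Arrb1, a beta-arrestin that can scaffold RAF, MEK and ERK, stood at 24.2 and 25.2 CPM in WT, 34.0 and 30.0 in DD, and at 37.1 and 35.0 in DD_rDKK3 (0.37, SE 0.146, for DD against WT).

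Kinases of the other MAP kinase arms had medians of 0.09, -0.06 and 0.10 in the 3 comparisons, with 0 of 14 called. Map2k6, which activates p38, stood at 1.97 and 2.53 CPM in WT, 0.757 and 1.06 in DD, and at 1.16 and 0.914 in DD_rDKK3 (-1.31, SE 0.407, for DD against WT and -1.11, SE 0.402, for DD_rDKK3 against WT, edgeR adjusted p = 0.586 and 0.322). Map2k3, the other main activator of p38, stood at 34.6 and 32.9 CPM in WT, 42.2 and 45.3 in DD, and at 35.7 and 37.7 in DD_rDKK3 (0.38, SE 0.137, for DD against WT and -0.25, SE 0.136, for DD_rDKK3 against DD). The values of these paralogs thus differed from WT in opposite directions in DD, and neither passed the adjusted test. The kinases that ERK activates had 0 of 7 called, with medians of 0.17, 0.11 and 0.22. Rps6ka4 was at 29.7 and 24.2 CPM in WT, 35.3 and 30.0 in DD, and at 25.9 and 25.4 in DD_rDKK3, Mknk1 gave -0.31 (SE 0.194, and -0.20 without the second DD and second DD_rDKK3 libraries) for DD against WT, and Rps6ka3 gave 0.41 (SE 0.197) for DD_rDKK3 against WT.

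Genes that ERK activity is known to induce, a set of 10 in common use as a transcriptional readout of the pathway, were set beside the relay. Of 9 tested (Epha4, at 3 to 10 counts per library, was not), 8 had positive log2 fold changes for DD against WT with a median of 0.64. Over all genes 7614 of 14738 were positive. An unadjusted p under 0.05 was found for 3 of the 9, beside 8.26% of all genes, and 0 were called. For DD_rDKK3 against DD, 0 of 9 were positive, with a median of -0.41, beside 7301 of 14738 over all genes. Here 4 of the 9 had an unadjusted p under 0.05, beside 1.98% of all genes, and 0 were called. For DD_rDKK3 against WT, 5 of 9 were positive with a median of 0.06. The medians of the core genes in the same comparisons were 0.14, -0.10 and 0.07. The first 2 comparisons share the DD libraries, so their opposite signs are not independent, and the difference between the lists was not tested. Without the second DD and second DD_rDKK3 libraries the medians of the output genes were 0.56, -0.65 and -0.13. With only the named library left out of the full set, the median of 0.64 for DD against WT became 0.35 without the first WT library. It became 0.42 without the second WT library. The median of -0.41 for DD_rDKK3 against DD became -0.68 without the second DD library.

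Phlda1, a gene that growth factor signalling induces, stood at 20.9 and 25.2 CPM in WT, 44.5 and 48.4 in DD, and at 25.7 and 25.9 in DD_rDKK3. Both DD libraries were above the other 4 by a wide margin, with a log2 fold change of 1.01 for DD against WT (SE 0.154, edgeR adjusted p = 0.23) and -0.85 for DD_rDKK3 against DD (SE 0.152, edgeR adjusted p = 1.00). DESeq2 called both differences (adjusted p = 0.000255 and 0.0432), as did edgeR with no filter on low counts (2e-05 and 0.00683). Over all genes DESeq2 called 80 and 5 in these comparisons, and edgeR with no filter 528 and 73. With a replicate block within the Dkk3-null libraries edgeR called the first (adjusted p = 0.0351, beside 65 of all genes) but not the second (0.534). With library totals or DESeq2 size factors in place of TMM, edgeR called neither (adjusted p = 0.276 and 0.212 for the first). Without the second DD and second DD_rDKK3 libraries the values were 0.95 and -0.79 for Phlda1, 0.56 and -0.68 for Dusp6, and 0.62 and -0.83 for Epha2. Dusp6, an ERK phosphatase, stood at 15.8 and 13.6 CPM in WT, 21.6 and 27.8 in DD, and at 13.4 and 17.2 in DD_rDKK3 (0.75, SE 0.21, and -0.69, SE 0.207). With no filter it was called for DD against WT (edgeR adjusted p = 0.024), and so was Epha2 (edgeR adjusted p = 0.0406). Epha2, an ephrin receptor, stood at 26.0 and 14.0 CPM in WT, 30.6 and 32.2 in DD, and at 17.1 and 20.8 in DD_rDKK3 (0.66, SE 0.277, and -0.73, SE 0.274), and its first value was 1.18 without the first WT library and 0.27 without the second.

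Ccnd1, which encodes cyclin D1, had a pattern of its own among the output genes: 31.1 and 27.7 CPM in WT and 32.7 and 29.5 in DD, but 19.1 and 18.7 in DD_rDKK3. Its groups WT and DD overlapped (0.08, SE 0.15), and both treated libraries were below the other 4 (-0.72 against DD, SE 0.151, edgeR adjusted p = 1.00). The ETS factor genes Etv4 and Etv5, at 1.33 to 4.45 CPM, gave 0.78 (SE 0.353) and 0.19 (SE 0.33) for DD against WT and -0.35 and -0.41 for DD_rDKK3 against DD. The phosphatase gene Dusp4 stood at 11.2 and 18.3 CPM in WT, 28.4 and 17.9 in DD, and at 18.1 and 17.3 in DD_rDKK3 (0.64, SE 0.292, and -0.39, SE 0.287). The feedback inhibitors Spry2 and Spry4, at 3.28 to 5.29 CPM, gave -0.01 (SE 0.248) and 0.27 (SE 0.327) for DD against WT and -0.13 for both for DD_rDKK3 against DD. None of these passed the adjusted test. Without the second DD and second DD_rDKK3 libraries, Ccnd1 gave 0.15, Etv5 0.46, Spry2 -0.07 and Spry4 -0.07 for DD against WT, and Dusp4 gave -0.65, Spry2 -0.24 and Spry4 -0.05 for DD_rDKK3 against DD.

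**Figure D4:**
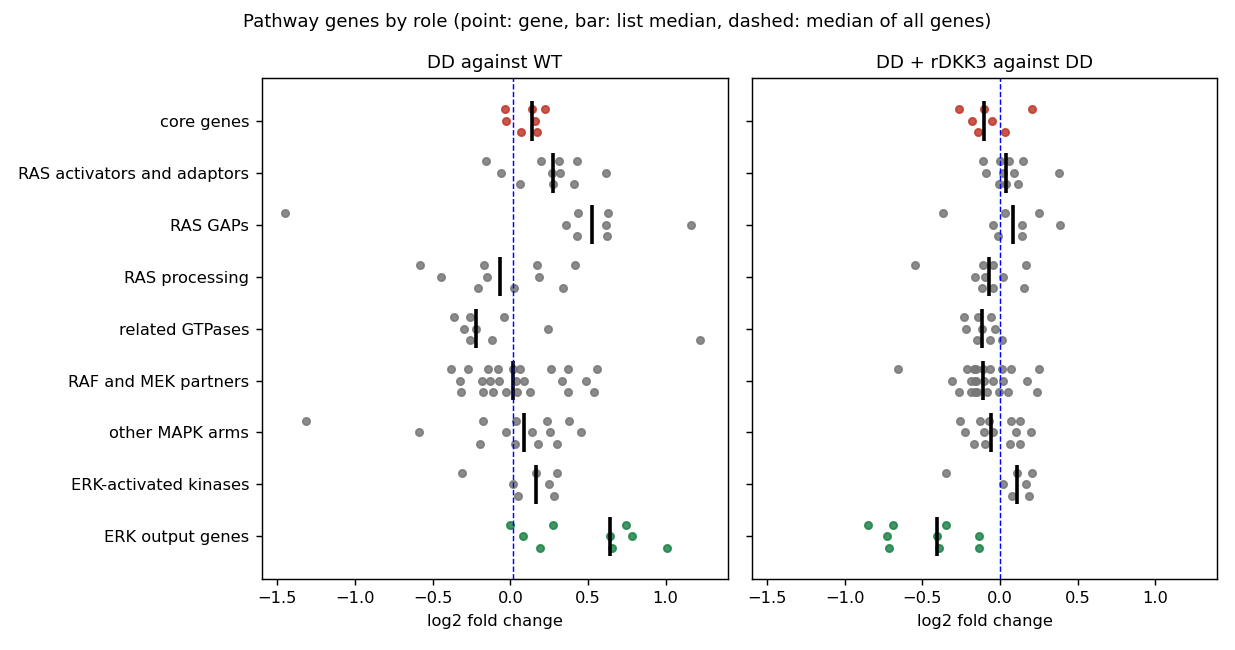
Log2 fold change (horizontal axis, edgeR) of every tested gene in each list by role, for DD against WT and DD + rDKK3 against DD, with a black bar at the median of each list and a dashed line at the median of all tested genes. The 7 core genes (red) lie within -0.27 to 0.22 in both panels, with medians of 0.14 and -0.10. The 9 ERK output genes (green) have medians of 0.64 and -0.41. They run from -0.01 to 1.01 and from -0.85 to -0.13, so the 2 lists overlap in both panels.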

How the data were processed

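RNA was isolated with the RNeasy Plus Mini kit and sequenced from strand-marking NEBNext Ultra II Directional libraries. The authors aligned reads with STAR 2.7.9a to GRCm39 (the submitters' processing notes also name Picard 2.19.2, DESeq2 1.38.0 and R 4.2.2) and counted them per gene with a strand-specific setting. The deposited values are these raw counts, 57045 rows, of which 92 spike-in rows held 0 counts and were removed. Depth and counts per library are given in the report. Poisson intervals cover counting error only. 14738 genes passed edgeR's filterByExpr (minimum count 10, minimum total 15). They were TMM-scaled and fitted in edgeR 4.0.16 (R 4.3.3) with the quasi-likelihood test over all 6 libraries and 3 groups, with Benjamini-Hochberg adjustment over all 14738 and a threshold of 0.05. Log2 CPM values used a prior count of 2. Gene coordinates come from the table, and transcript lengths and overlaps from GENCODE M39. Shared sequence was searched with BLAST+ 2.17.0. Alternatives were DESeq2 1.42.0, limma-voom (limma 3.58.1), other scalings, no filter, fewer libraries and replicate blocks. The 7 members and the lists were chosen with earlier results of these data known. Named genes are all members, the 2 genes of each pathway list with the smallest unadjusted p for DD against WT and 1 for each other comparison, all tested ERK output genes, the gene most like each member, and overlapping genes and pseudogenes. Further genes of these families were not analysed here.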

Additional observations from a re-analysis of the deposited data

How the results depend on the processing

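Under every alternative run, 0 of 7 members were called in each of the 3 comparisons. The counts over all genes, 6 for DD against WT, 0 for DD_rDKK3 against DD and 7 for DD_rDKK3 against WT, were 80, 5 and 74 under DESeq2 and 528, 73 and 788 with no filter on low counts. Limma-voom gave 3 for DD_rDKK3 against WT, and leaving out the second DD and second DD_rDKK3 libraries together gave 14 for DD against WT. Pathway genes called rose from 0 to 1, 1 and 1 under DESeq2. Leaving out 1 library at a time gave 2 to 6 genes for DD against WT and 2 to 9 for DD_rDKK3 against WT. The causes were not tested.

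Because the members' values were close to 0, their signs depended on the setting. With library totals, the log2 fold change was 0.18 for Hras, 0.19 for Araf and 0.20 for Spry2 for DD against WT, -0.014 for Araf for DD_rDKK3 against DD, and 0.17 for Araf and 0.041 for Map2k1 for DD_rDKK3 against WT. With no filter it was 0.020 for Hras, 0.026 for Araf and 0.049 for Spry2 for DD against WT, and 0.047 for Araf for DD_rDKK3 against WT. Araf for DD_rDKK3 against WT was 0.0069 under limma-voom, 0.0038 with only the groups compared and 0.0020 with the replicate block, and Spry2 for DD against WT was 0.0085 with only the groups compared. Leaving out 1 library at a time, where the lone library left is assumed to vary like the other groups, gave -0.22 to 0.19 for Hras, -0.16 to 0.13 for Araf, -0.18 to 0.41 for Braf, -0.0078 to 0.44 for Map2k2, -0.14 to 0.47 for Etv5, -0.069 to 0.084 for Spry2 and -0.072 to 0.58 for Spry4 for DD against WT. For DD_rDKK3 against DD it gave -0.25 to 0.0073 for Nras, -0.055 to 0.088 for Araf, -0.0094 to 0.44 for Braf, -0.36 to 0.088 for Map2k2, -0.13 to 0.0057 for Mapk3, -0.32 to 0.016 for Spry2 and -0.44 to 0.21 for Spry4. For DD_rDKK3 against WT it gave -0.40 to 0.0080 for Hras, -0.076 to 0.25 for Nras, -0.13 to 0.16 for Araf and -0.0091 to 0.20 for Map2k2.

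The libraries share replicate numbers, and the titles of same-numbered DD and DD_rDKK3 libraries also share the DD name. No label states that they come from the same animal. Their labelled ages differ, but ages that rise in even steps from library to library do not settle this. Deviations of same-numbered libraries from their group means correlated at -0.39 (WT and DD), -0.25 (WT and DD_rDKK3) and 0.65 (DD and DD_rDKK3) over 14738 genes. A replicate block over all libraries left 0 members called, and a block within the Dkk3-null libraries gave 65 genes for DD against WT and 77 for DD_rDKK3 against WT. With the latter block the members' log2 fold changes for DD_rDKK3 against DD ran from -0.27 to 0.21, and 0 members were called. Swapping the WT numbers in the block, chosen after the data were seen, gave 296, 29 and 566 genes and again 0 members.

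Groups of 2 libraries limit what can be shown: the exact permutation test over 2 against 2 libraries cannot go below p = 0.333, and the edgeR fit has 3 residual degrees of freedom.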
